A study of Mus musculus with 6 samples.

Results

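The genes examined here are those of the small nucleolar RNAs (snoRNAs), chosen as every gene that GENCODE vM21, a catalogue of mouse genes, types as snoRNA and that had at least 10 counts in 3 or more of 6 libraries. The rule kept 192 of 1507 snoRNA genes, out of 46078 genes in the tables, and another 764 snoRNA genes had 0 counts in every library while 551 had some counts but stayed under the rule. Total RNA was sequenced from 3 mouse libraries labelled JMML and 3 labelled WT. JMML stands for juvenile myelomonocytic leukemia, a myeloid blood cancer of early childhood, and WT for wild type. The series title speaks of a mouse model with sustained fetal blood formation, but the labels give no tissue, age, strain, altered gene or promoter, and do not say whether animals or RNA were pooled. In the labels a letter closes each sample identifier, F for 2 JMML libraries (replicates 1 and 2) and M for the remaining 4, with no explanation. The members were thus chosen by their counts in all 6 libraries, so their presence is no finding, and their levels are given as a description. Gm22303, at the edge of the rule, had 12, 12 and 7 counts in the JMML libraries and 6, 10 and 6 in the WT libraries, and Gm22980, just outside it, had 12, 8 and 9 against 14, 8 and 3.

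SnoRNAs are short noncoding RNAs of the nucleolus, and most of them guide enzymes to single bases of ribosomal RNA. Box C/D snoRNAs, whose genes are named Snord, pair with the target to place a methyl group on the ribose, and box H/ACA snoRNAs, named Snora, direct the change of uridine to pseudouridine. A few, among them U3, U8, U14, U17 and U22, are needed for the cutting of the ribosomal RNA precursor. In mammals most snoRNAs are cut out of introns of a host gene, often one for a ribosomal protein or a translation factor, so one transcript gives both the host messenger RNA and the snoRNA. Rnu3a and Rnu3b1 to Rnu3b4 encode U3 and carry neither name.

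The sequences below are those of 6 of the 10 members with the highest mean level, Snord17 as the highest Snord member and the others because they come in near-identical or similar copies, which bears on how reads could be assigned to a gene. They were taken from the GENCODE vM21 transcripts (build GRCm38) and run from 5′ to 3′, with T for U. Capitals mark box C (NTGATGA, in the first 25 bases) and box D (CTGA, in the last 20) in the C/D gene, and the ACA box (ACA, in the last 8) in the H/ACA genes. In both U3 genes box D alone was found, and it is in capitals. Snord17 lies in an intron of Snx5 (chr2:144265979-144266216, minus strand), Snora73a and Snora73b in Snhg3 (chr4:132352775-132352979 and chr4:132352322-132352526, minus strand), Gm26448 in an intron of Rpsa (chr9:120129351-120129553, plus strand), Rnu3a in no host (chr10:40258467-40258680, plus strand) and Rnu3b1 in an intron of Tex14 (chr11:87443237-87443451, plus strand).
Snord17: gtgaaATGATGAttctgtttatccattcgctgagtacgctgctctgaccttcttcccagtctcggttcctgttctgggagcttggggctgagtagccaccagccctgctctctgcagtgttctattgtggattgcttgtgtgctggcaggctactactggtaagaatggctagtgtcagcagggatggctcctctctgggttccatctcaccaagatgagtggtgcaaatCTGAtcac
Snora73a: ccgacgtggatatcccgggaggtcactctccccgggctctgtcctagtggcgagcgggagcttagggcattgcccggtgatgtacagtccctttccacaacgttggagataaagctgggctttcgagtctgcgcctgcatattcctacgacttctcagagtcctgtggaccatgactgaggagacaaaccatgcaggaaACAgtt
Snora73b: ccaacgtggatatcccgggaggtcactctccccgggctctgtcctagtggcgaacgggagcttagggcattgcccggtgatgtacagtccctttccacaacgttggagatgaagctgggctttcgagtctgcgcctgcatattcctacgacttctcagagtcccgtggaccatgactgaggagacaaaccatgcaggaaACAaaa
Gm26448: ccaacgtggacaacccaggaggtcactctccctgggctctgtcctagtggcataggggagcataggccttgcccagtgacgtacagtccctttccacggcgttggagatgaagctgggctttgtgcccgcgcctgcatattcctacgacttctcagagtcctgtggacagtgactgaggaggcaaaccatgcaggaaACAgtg
Rnu3a: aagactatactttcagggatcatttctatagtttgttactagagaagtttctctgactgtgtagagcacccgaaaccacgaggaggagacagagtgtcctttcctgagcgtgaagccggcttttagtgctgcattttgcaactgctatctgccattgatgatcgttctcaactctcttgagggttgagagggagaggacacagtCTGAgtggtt
Rnu3b1: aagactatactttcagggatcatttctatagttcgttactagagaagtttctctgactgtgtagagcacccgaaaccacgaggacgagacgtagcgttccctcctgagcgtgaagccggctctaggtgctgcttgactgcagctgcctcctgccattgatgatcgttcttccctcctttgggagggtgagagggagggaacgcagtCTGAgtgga
Snora73a and Snora73b, which both encode U17, were identical at 96.6% of 205 aligned positions. Gm26448, which has no name of its own, matched Snora73a at 88.3% of the alignment and ended in the same ACA box. Rnu3a matched Rnu3b1 at 85.2%, and Rnu3b1, Rnu3b2, Rnu3b3 and Rnu3b4 were 100% identical over 215 bases.

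The members comprised 53 of 98 Snord genes, 29 of 42 Snora genes and 110 of 1367 snoRNA genes with other symbols, mostly unnamed Gm models. Box D was found in 51 of the 53 Snord members, and box C together with box D in 32 of them (60.4%), against 20.5% of all 1502 snoRNA genes with a sequence. The ACA box was found in all 29 Snora members, against 47.0% of all snoRNA genes and 5.39% of small nuclear RNA genes. Of the 110 members with other symbols, 29 had boxes C and D and 64 the ACA box, 6 of them both, and 23 had neither the C and D pair nor the ACA box. A match to such short letters is a description of the window and not evidence of a class.

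Sequencing depth was uneven between the groups. The JMML libraries held 91976512 to 108395459 counts and the WT libraries 47096464 to 61656272, so that 1 count was worth 0.00951 to 0.0192 CPM (counts scaled to library size, with TMM factors). Markers of several blood lineages also differed between the groups. The summed level of 9 B cell markers was 10.3 to 16.9 CPM in JMML and 133 to 547 in WT, with 9 of 9 called lower. For 9 erythroid markers the sum was 418 to 1411 against 1833 to 2360 CPM, with 6 called lower, and for 8 granulocyte and monocyte markers 4544 to 6547 against 3408 to 3915 CPM, with 6 called higher. No listed marker was at 0 in any library. Their part in the snoRNA values was not tested, and in such bulk libraries fewer cells of a type and less RNA per cell cannot be told apart.

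All snoRNA genes together took 0.134%, 0.0861% and 0.0801% of the counts in the JMML libraries and 0.100%, 0.0992% and 0.111% in the WT libraries. JMML replicate 1 had the highest share of the 6 and the other JMML libraries the lowest, and the groups overlapped. The means were 0.100% ± 0.0298 in JMML and 0.104% ± 0.00658 in WT (SD, n = 3 each). The counts came mainly from a few long members. The 16 members longer than 160 bases held 73.5% of all member counts, whereas the 81 members of up to 100 bases held 10.6%. The median member had 42.9 counts per library, and the median count was 29.3 for members of up to 100 bases, 48.8 for those of 101 to 160 and 2702 for longer ones.

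**Figure D1:**
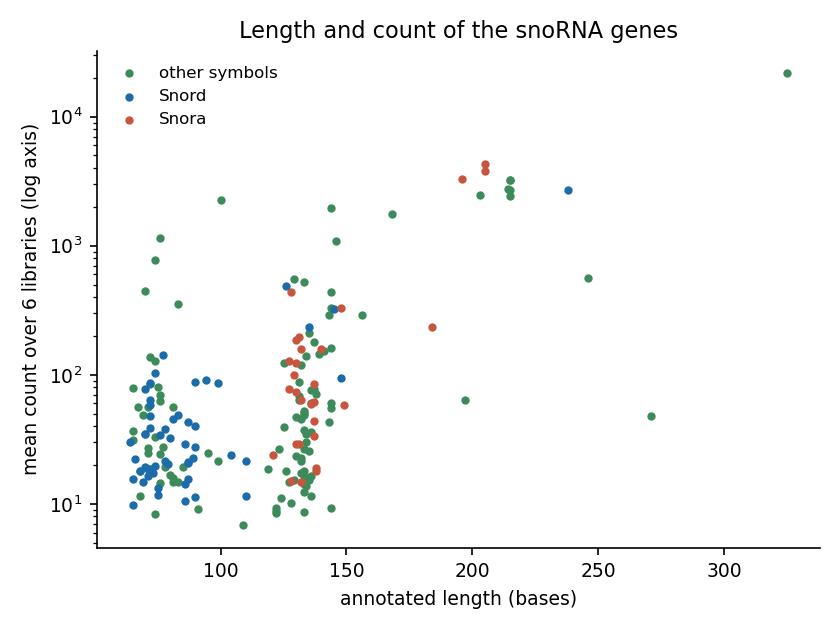
Mean count over the 6 libraries (log axis) against annotated length in bases for the 192 snoRNA genes, 1 point per gene, coloured by symbol class. The 16 genes longer than 160 bases have a median of 2702 counts, and the median over all members is 42.9.

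Scarna10, whose product U85 carries both box types and guides modification of a spliceosomal RNA in Cajal bodies, alone made up 28.8% of the member counts. It had 38847, 23147 and 19698 counts in JMML and 15036, 12714 and 20421 in WT. Scaled for depth, JMML replicate 1 stood highest at 474 CPM, the other JMML libraries were at 220 and 217, and the WT libraries ranged from 231 to 351, so the groups overlapped. The log2 fold change was 0.14 ± 0.33 (standard error, as throughout, for 3 against 3 libraries), with an adjusted p of 0.778 by edgeR. Without JMML replicate 1 it was -0.32. Per kilobase of annotated length, Scarna10 was also first at 891 CPM, followed by Gm23455 (in an exon of Taf1d) at 308, Snora73b at 276, Snora73a at 233 and Snora74a at 223. These order means over all 6 libraries, and neighbours after Scarna10 overlapped in their library values. The mean of Snora73a rests on JMML replicate 1, at 836 CPM per kilobase against 87.2 to 124 in the other libraries.

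**Figure D2:**
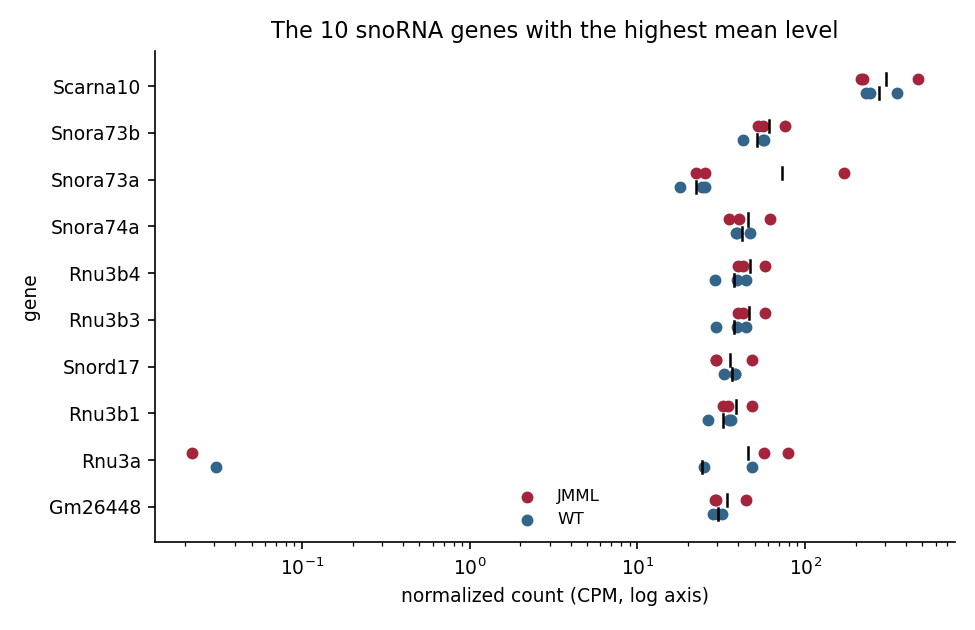
Normalized count (CPM, log axis) of the 10 snoRNA genes with the highest mean level, 1 point per library (red, JMML; blue, WT) and a bar at each group mean. The groups overlap for all 10 genes, JMML replicate 1 is the highest point of every row, and Rnu3a has 1 library of each group near 0.

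Among the snoRNAs of precursor processing, a list assembled after values had been seen, none of 14 tested genes was called at an adjusted p under 0.05 (edgeR, 0 at an unadjusted p under 0.05, and 0 called by DESeq2 and by limma-voom), beside 26.2% of all genes called and 40.9% at an unadjusted p under 0.05. U3 guides the early cuts that release the small-subunit RNA. Rnu3b4 had 58.0, 42.8 and 39.5 CPM in JMML and 44.1, 29.2 and 39.0 in WT, a log2 fold change of 0.32 ± 0.20 (adjusted p = 0.275). JMML replicate 1 was highest and WT replicate 2 lowest, and the other 4 libraries lay close together. Rnu3b1, Rnu3b2 and Rnu3b3 had fold changes of 0.25 to 0.32 on the log2 scale. Since the 4 genes share a sequence, they are not separate measurements. The counts of Rnu3b3 and Rnu3b4 differed by no more than 1.16% in any library. Rnu3b1 and Rnu3b2 were lower than Rnu3b4 in every library despite the same sequence. Their means were 38.5 and 35.2 CPM in JMML and 32.4 and 28.2 in WT, against 46.8 and 37.5 for Rnu3b4.

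Snora73b, a U17 gene in an intron of Snhg3, had 75.7, 52.2 and 56.1 CPM in JMML and 57.0, 42.9 and 55.7 in WT. All 3 JMML values fell within or above the WT range, and the log2 fold change was 0.24 ± 0.18 (adjusted p = 0.347). Snord118, which encodes U8 and acts on the large-subunit RNAs, had 342, 291 and 309 counts in JMML and 139, 145 and 179 in WT. In CPM these were 4.17, 2.77 and 3.40 against 2.14, 2.78 and 3.08, and on this scale the groups overlapped (log2 fold change 0.37 ± 0.26, adjusted p = 0.319). Snord22, the U22 gene, was at 8.21, 5.79 and 5.08 CPM in JMML and at 7.31, 6.59 and 6.67 in WT, with a log2 fold change of -0.11 ± 0.22. Snord13 (U13), with 9 to 40 counts per library, had a log2 fold change of 0.42 ± 0.47, and its 95% interval, from -0.67 to 1.51, left a doubling possible. The 4 Snord14 genes, which encode U14, had 0 to 65 counts per library and log2 fold changes from -0.56 to 0.55.

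Apart from these, Snord17, a C/D guide and the most abundant Snord member, had 48.2, 29.4 and 29.4 CPM in JMML and 38.1, 38.4 and 32.9 in WT. JMML replicate 1 was the highest library and the other JMML libraries the lowest. The log2 fold change was -0.03 ± 0.21, with a 95% interval from -0.53 to 0.46, which lies within a 2-fold change either way. Snora74a, the H/ACA snoRNA U19, had 61.8, 40.1 and 35.3 CPM in JMML and 38.8, 39.2 and 47.2 in WT (log2 fold change 0.13 ± 0.22, adjusted p = 0.683). Gm26448 had 44.5, 29.5 and 29.1 against 32.1, 28.1 and 30.4 CPM (0.19 ± 0.19 on the log2 scale, adjusted p = 0.488). Gm24336, in an intron of Cwf19l1, had 23.1, 12.3 and 11.2 against 10.6, 13.6 and 16.1 CPM. In each of these JMML replicate 1 was the highest of the 6 libraries, and without it the log2 fold changes of Snora74a, Gm26448 and Gm24336 were -0.13, -0.03 and -0.18.

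Across the members, few differences passed the test. Of 186 members tested, 0 were called higher and 1 lower in JMML (edgeR quasi-likelihood test, Benjamini-Hochberg adjusted p under 0.05 over all 18097 genes tested), whereas 26.2% of all genes tested were called, 12.4% higher and 13.8% lower. At an unadjusted p under 0.05, 0 members were higher and 8 lower, against 40.9% of all genes in either direction. DESeq2 and limma-voom each called 0 members higher and 1 lower. Among genes in the interquartile range of the members' abundance (log2 CPM of -1.77 to 0.77), 20.2% were called (3.26% higher and 16.9% lower), and 0 of the 92 members in that range, whose 95% intervals had a median half-width of 0.89 on the log2 scale against 1.06 for all genes of the range. At a log2 CPM of 2 or more, 29.6% of all genes were called (17.7% higher and 12% lower) and 0 of 28 members, for which DESeq2 called 1 lower (Gm22357) and limma-voom 0.

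The groups did not overlap for 2 members higher and 26 lower in JMML, against 47.5% of all genes tested (22.9% higher and 24.6% lower). The 2 higher ones were H/ACA genes. Snora78, in an intron of Snhg9, had 7.03, 6.31 and 6.74 CPM in JMML and 5.43, 2.78 and 4.80 in WT (log2 fold change 0.63 ± 0.27, adjusted p = 0.126). Snora24, in an exon of Snhg8, had 2.92, 2.55 and 2.65 against 2.31, 2.38 and 1.63 CPM (0.36 ± 0.25, adjusted p = 0.309). Neither passed the test.

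By class, the median log2 fold change was -0.24 for 53 Snord members, -0.01 for 29 Snora members and -0.24 for 104 members with other symbols. Over all 186 it was -0.22, beside -0.02 for all genes tested and -0.50 for genes of like abundance. The median was 0.15 for the 28 members at a log2 CPM of 2 or more, beside 0.10 for all 11353 genes at that level, and -0.24 for the other members. By length the median of the members was -0.37 up to 100 bases, -0.12 from 101 to 160 and 0.21 above. Short members are also the ones with the fewest counts. No Snord or Snora gene was called by edgeR, DESeq2 or limma-voom, beside 26.2% of all genes called by edgeR. At an unadjusted p under 0.05, edgeR had 1 lower in each of these classes and 0 higher. That compares with 40.9% of all genes in either direction. At the same threshold DESeq2 and limma-voom each had 1 Snora member higher and 1 lower. Of the Snord members, they had 0 and 1 lower. The 95% interval lay within a 2-fold change either way for 59 of 186 members, among them 23 of the 28 abundant ones. It excluded a 2-fold rise in JMML for 144 of the 186 and a 2-fold fall for 73. For most members a 2-fold fall, but not a 2-fold rise, was thus within the error.

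**Figure D3:**
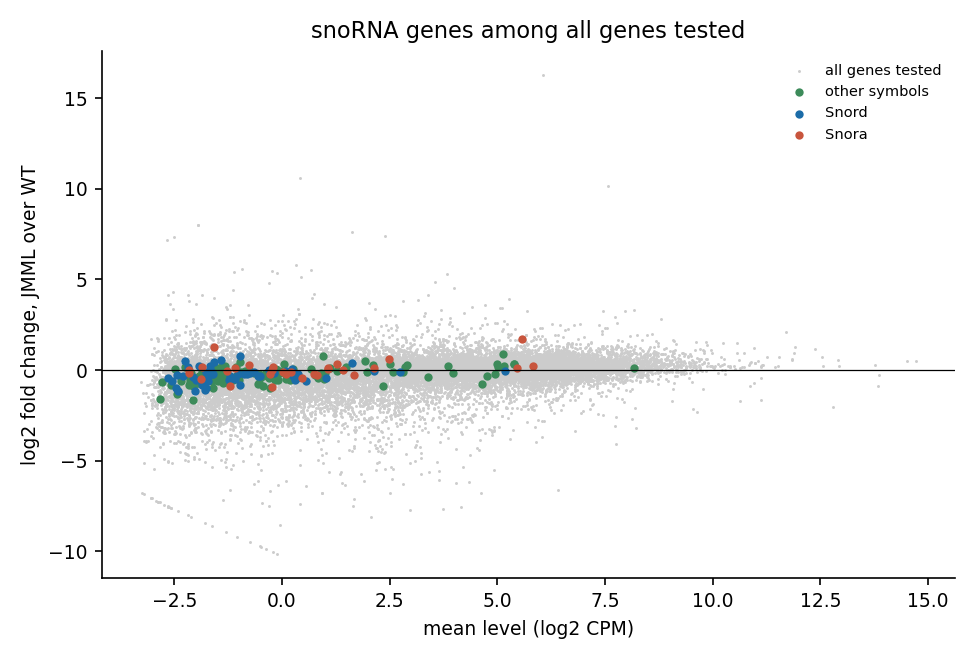
Log2 fold change of JMML over WT against mean level (log2 CPM) for the 18097 genes tested (grey) and the 186 snoRNA genes tested, coloured by symbol class. Most snoRNA genes lie at low levels near or below 0. The 28 at a log2 CPM of 2 or more have a median of 0.15, beside 0.10 for all genes at that level.

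The called member was Gm23297, an unnamed gene with an ACA box, 127 bases long, in an intron of Nap1l4, which encodes a histone chaperone (chr7:143531394-143531520, minus strand). It is named here because it was the only call, after its values were seen. With its ACA box in capitals it reads as follows.
Gm23297: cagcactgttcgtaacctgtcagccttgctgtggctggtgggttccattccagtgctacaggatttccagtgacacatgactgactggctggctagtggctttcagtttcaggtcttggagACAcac
It had 11, 10 and 9 counts in JMML and 19, 25 and 15 in WT, or 0.134, 0.0951 and 0.0990 against 0.292, 0.479 and 0.258 CPM. Every JMML library was below every WT library, although the raw counts were small and the JMML libraries the deeper ones. The log2 fold change was -1.63 ± 0.48 with a 95% interval from -2.74 to -0.53 (adjusted p = 0.0416). The call was lost with DESeq2 (adjusted p = 0.0837) and without any 1 of the 6 libraries (0.0769 to 0.153), and over all alternatives the adjusted p ranged from 0.0309 to 0.258.

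The other 7 members with an unadjusted p under 0.05 were also lower in every JMML library, and none passed the adjusted threshold. Gm22357, in an exon of Gas5, had 4.99, 2.65 and 3.27 CPM in JMML and 5.43, 9.24 and 5.01 in WT (log2 fold change -0.85 ± 0.34, adjusted p = 0.101). Snord4a, in an intron of Rpl23a, had 12, 21 and 15 counts against 22, 23 and 19 (-1.10 ± 0.41 on the log2 scale, adjusted p = 0.0838). Gm24494 in Rabggtb, Gm24451 in Nop56, Gm23136 in Rpl4, Gm22581 in Polr3c and Snora62 in Rpsa had log2 fold changes between -1.21 and -0.89.

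Most members lay inside another gene on the same strand. Of the 192, 110 were within an intron of a host, 49 within an exon, 14 across an exon edge and 19 outside any host. This was 90.1% in a host, against 35.4% of the 1315 other snoRNA genes. The 173 nested members had 114 hosts, protein-coding for 150 members and noncoding for 23. Ribosomal protein genes held 44 members, all tested, and their log2 fold changes had a median of -0.22, beside a median of -0.22 for the 124 tested members in other hosts. None of the 44 was called (edgeR; 0 were higher and 3 lower at an unadjusted p under 0.05, and DESeq2 and limma-voom called 0), beside 26.2% and 40.9% of all genes. Of the 19 members without an assigned host, 8 lie within the span of Snhg1, whose annotated identifier was not used here.

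Of the 114 hosts, 8 were called higher and 5 lower in JMML (11.4%, beside 26.2% of all genes tested). The median host log2 fold change was 0.12, and 127 of 168 members with a tested host had a lower fold change than that host. A lower ratio to the host was not particular to snoRNAs. The median log2 ratio difference was -0.32 for these pairs and -0.70 for all 1305 pairs of a nested gene and its host. Among the called hosts, Prrc2a fell by 1.14 on the log2 scale (± 0.24, adjusted p = 0.0145) while Gm23442 within it was at 0.16. Pabpc4, a cytoplasmic poly(A)-binding protein gene, fell by 1.08 (± 0.20, adjusted p = 0.0103), with Gm25788 and Gm22154 at -0.52 and 0.08. Gsr, for glutathione reductase, rose by 0.84 (± 0.12, adjusted p = 0.00501) and Gm24727 was at 0.36. The ribosomal protein hosts Rps13, Rpl10 and Rpl32 rose by 0.39 to 0.56, and their members Snord14a, Snora70 and Snora7a were at -0.16, 0.30 and 0.11. The members themselves were not called.

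Across the 168 pairs the fold changes of member and host had a Pearson r of 0.09 and a Spearman rho of 0.21. These pairs share the 6 libraries, and many share a host, so the values are a description. No host with 3 or more members was called. Among these hosts, Taf1d, Gas5, Hspa8 and Rps12 hold their members within exons. How reads there were split between member and host is not known. Gm23455 had counts equal to 31.2% to 79.6% of the Taf1d count. Taf1d, a subunit of the RNA polymerase I initiation factor complex, held 8 members, and all had a lower fold change (-0.39 to 0.15) than Taf1d (0.21 ± 0.21). Rpl4 held 5, from -0.99 to 0.07, beside 0.19 ± 0.14 for Rpl4. In Nop56, a C/D core protein gene, Snord110, Gm24451 and Snord57 were at -0.57 to -0.89 with the host at -0.38 ± 0.14 (adjusted p = 0.0822). In Gas5, a noncoding host, the 3 members were at -0.85 to -0.46 with the host at -0.15 ± 0.26. In Hspa8, which encodes a heat-shock cognate chaperone, Snord14c, Snord14d and Snord14e were at 0.48, -0.56 and 0.55 with the host at 0.44 ± 0.15. The members of Rps12 and Rpl13a were at -0.58 to -0.42 and -0.31 to -0.21, with the hosts at 0.20 and 0.50. The U3 genes within Tex14 were at 0.25 to 0.32. Tex14, a testis gene at 32 to 113 counts per library, was at 0.56 ± 0.39 and is their host here by position alone. Counts of the U3 genes were 2941% to 8972% of the Tex14 count. Although of the same sequence, they enter as separate pairs among the 168. In Eif4a1 and Eif4a2, genes of a translation initiation helicase, the members were at -0.34 to 0.29 and -0.24 to 0.15, with the hosts at 0.30 and -0.23, and 2 of the 3 members of Eif4a2 lay above it. The members of the ribosomal protein genes Rpl17, Rpl23a and Rpsa were at -0.53 to -0.10, -1.10 to 0.15 and -0.91 to 0.19, all below their hosts at 0.19, 0.23 and 0.38. Those of the noncoding 2410006H16Rik, Snord49a, Snord49b and Snord65, were at -0.32 to -0.16 with the host at 0.66 ± 0.26.

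**Figure D4:**
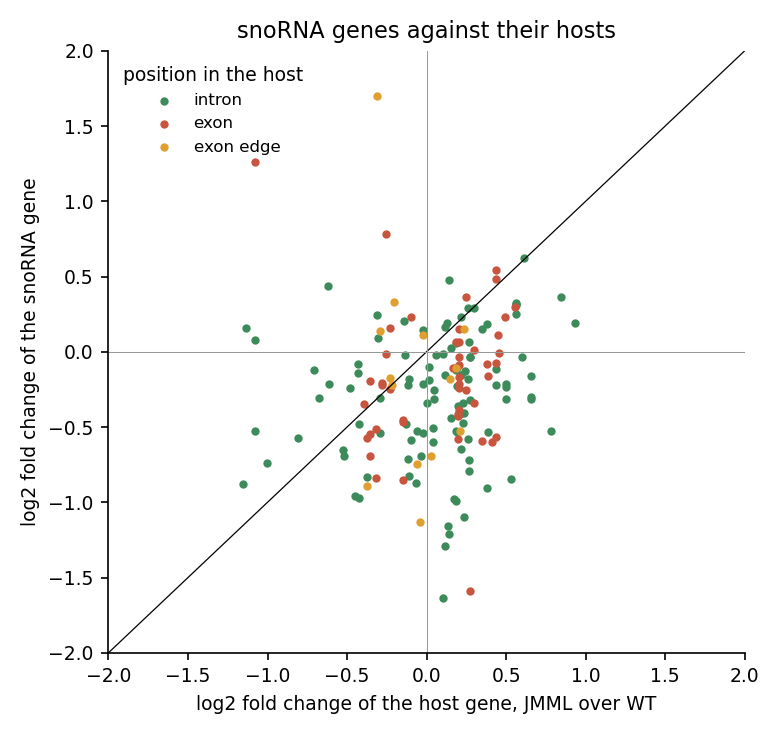
Log2 fold change of each snoRNA gene against that of its host (JMML over WT) for 168 pairs, coloured by position in the host, with the line of equal change. Of the points, 127 lie below the line. The median log2 ratio difference was -0.32 for these pairs, beside -0.70 for all 1305 nested pairs.

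The ratio of the snoRNA count to the host count was tested with limma over all 1305 pairs of a nested gene and its host. Of the 168 snoRNA pairs, 0 were called higher and 3 lower in JMML, against 16.2% of all nested pairs (2.91% higher and 13.3% lower). At an unadjusted p under 0.05, 3 were higher and 19 lower, against 39.2% of all pairs in either direction. No other tool was run on the ratio. The median log2 ratio difference was -0.32 for snoRNA pairs, -0.70 for all nested pairs and -1.08 for transcripts annotated as sense intronic, so a lower ratio in JMML was seen across nested genes of several kinds.

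The 3 called pairs involved intronic members. Snora62 lies in Rpsa, which encodes a ribosomal protein. Gm23908 lies in Csgalnact2, which encodes a chondroitin sulfate synthesis enzyme (chr6:118111914-118112045, minus strand), and is shown without capitals since it has no box in the windows searched.
Gm23908: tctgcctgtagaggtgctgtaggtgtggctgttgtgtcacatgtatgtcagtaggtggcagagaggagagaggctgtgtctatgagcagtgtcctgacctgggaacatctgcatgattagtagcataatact
Snora62 had 45, 74 and 44 counts in JMML and 69, 72 and 48 in WT, or 0.0219%, 0.0368% and 0.0253% of the Rpsa count against 0.0626%, 0.0895% and 0.0505%. The groups did not overlap, and the log2 ratio differed by -1.26 ± 0.35 (limma adjusted p = 0.0493). Gm23908 had 22, 27 and 23 counts against 21, 24 and 20, or 0.0997%, 0.0921% and 0.0954% of its host against 0.218%, 0.256% and 0.238%. Its ratio differed by -1.31 ± 0.33 (adjusted p = 0.0421), while Csgalnact2 itself rose by 0.78 ± 0.12 (edgeR adjusted p = 0.00585). For Gm23297 to Nap1l4 the difference was -1.68 ± 0.45 (adjusted p = 0.0469), with the host at 0.10 ± 0.11. All 3 calls were lost when any 1 library was left out.

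For several members, counts lay on one record of a locus in some libraries and on an overlapping record in others. Rnu3a is annotated by a pair of records that differ in length by 1 base. The record among the members had 6512, 6016 and 2 counts in JMML and 2, 1302 and 2801 in WT, while the twin record had 0, 0 and 5366 against 3912, 0 and 0. JMML replicate 3 and WT replicate 1 were thus counted on the twin and the other 4 libraries on the member. The sum was 6512, 6016 and 5368 against 3914, 1302 and 2801 counts. Highest over lowest CPM within JMML fell from 3612-fold for the member to 1.39-fold for the sum, and within WT from 1566-fold to 2.41-fold. The log2 fold change was 0.90 ± 1.90 for the member and 0.55 ± 0.31 for the sum (adjusted p = 0.751 and 0.214), so U3 from this locus was not shown to differ.

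Snora73a crosses an exon edge of Snhg3, a noncoding snoRNA host. It had 171, 25.4 and 22.3 CPM in JMML and 24.2, 17.9 and 25.4 in WT. JMML replicate 1 alone stood apart, and the log2 fold change of 1.70 ± 0.76 (adjusted p = 0.134) was 0.10 without it. In that library Snora73a held 86.2% of the counts of Snora73a and Snhg3 together, against 17.3% to 18.3% in the other 5. The sum of both genes was 16310, 15223 and 11652 counts in JMML and 9022, 5388 and 8070 in WT, and the spread within JMML was 7.68-fold for Snora73a and 1.55-fold for the sum. Gm23262, across an exon edge of the translation factor gene Eif4g2, had 2711, 2387 and 25 counts in JMML and 1531, 1598 and 2303 in WT. JMML replicate 3 was the low one, with 0.0293% of the counts of Gm23262 and Eif4g2, against 2.19% to 4.80% in the other libraries. The share of Scarna10 in the counts of Scarna10 and its host Ncapd2 was 67.0% in JMML replicate 1 and 37.2% to 49.7% elsewhere.

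**Figure D5:**
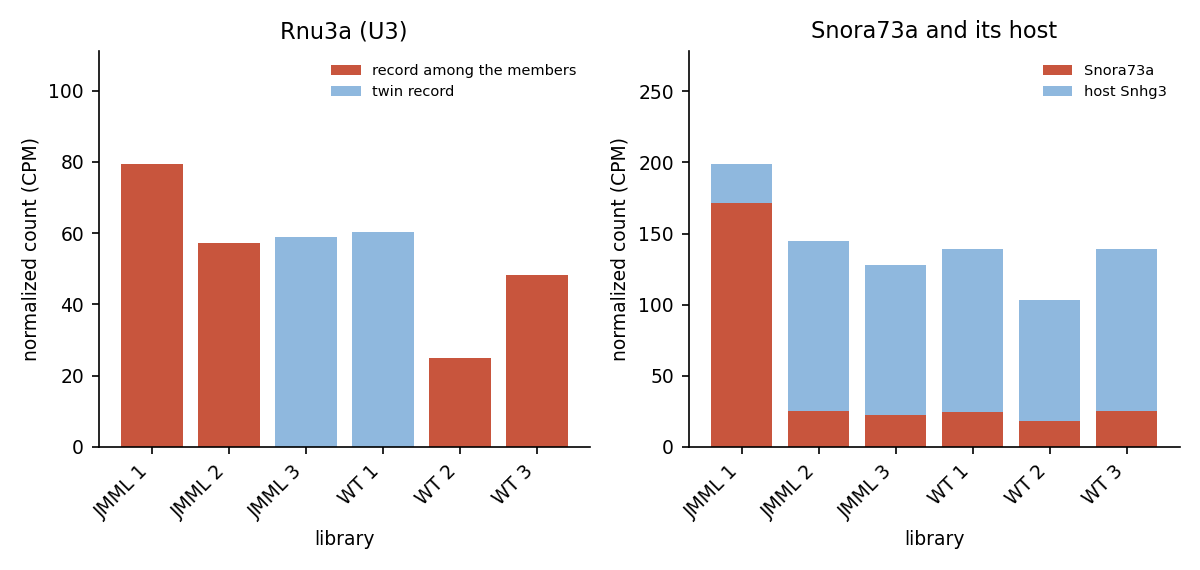
Normalized count (CPM) in each library for the paired Rnu3a records (left) and for Snora73a with its host Snhg3 (right), as stacked bars from 0. Rnu3a counts lie on the twin record in JMML replicate 3 and WT replicate 1, and the Snora73a part of its bar is large in JMML replicate 1 alone.

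Smaller members showed such jumps as well. With at least 20 counts in one library and at most 2 in another of the same group, they numbered 5 of 49 members within exons (Gm22589, Gm24067, Snora26, Snord14e and Snord50b), 0 of 14 across exon edges, 0 of 110 within introns, and Rnu3a among 19 outside hosts. Snord50b, in an exon of Snhg5, had 24, 57 and 86 counts in JMML and 66, 0 and 0 in WT. Snora26, in an exon of Dancr, had 49, 1 and 62 against 2, 1 and 28. All 5 of the exonic members jumped within WT and 2 of them, Gm22589 and Snora26, within JMML as well; whether jumps differ between the groups was not tested. The 114 members that overlap no exon of an assigned host and no other small record had a median log2 fold change of -0.26. This stands beside -0.02 for all genes tested and -0.50 for genes of like abundance. EdgeR called 0 of them higher and 1 lower, beside 26.2% of all genes called. At an unadjusted p under 0.05, 0 were higher and 6 lower, against 40.9% of all genes in either direction. Overlap with exons of Snhg1, which was not an assigned host, was not checked. Across all genes, 24 snoRNA symbols had a pair of records.

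The proteins that build and trim snoRNA particles were read from the same fit. Of 29 listed genes 28 were tested, and edgeR called 0 in either direction, against 26.2% of all genes called. At an unadjusted p under 0.05 (edgeR), 1 was higher and 3 lower, against 40.9% of all genes in either direction. Limma-voom called 0 and DESeq2 called 1 lower. The median log2 fold change was -0.10, with a range from -0.44 to 0.36. Among the core C/D proteins, Nop56 was at 116 ± 15.2 CPM in JMML and 151 ± 17.0 in WT (SD, n = 3 each), a log2 fold change of -0.38 ± 0.14 (adjusted p = 0.0822). Fbl, the methyltransferase fibrillarin, was at 0.23 ± 0.12 (adjusted p = 0.195), and Dkc1, the pseudouridine synthase dyskerin, at -0.25 ± 0.13 (adjusted p = 0.194). The assembly factors Naf1 and Pih1d1 were at -0.39 ± 0.22 and 0.31 ± 0.14. Tgs1, which trimethylates the cap of U3 and other capped small RNAs, had 44.9, 46.4 and 48.3 CPM in JMML and 65.1, 71.9 and 52.0 in WT. Its JMML libraries lay below all WT libraries, and the log2 fold change was -0.44 ± 0.14 (adjusted p = 0.0536 with edgeR and 0.0347 with DESeq2). The nucleases Dis3 and Xrn2 were at -0.41 ± 0.14 and 0.28 ± 0.11 (adjusted p = 0.0738 and 0.0952).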

How the data were processed

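Total RNA libraries from 3 JMML and 3 WT samples were made with a stranded kit that removes ribosomal RNA, per the labels' protocols. The authors deposited raw, unscaled counts for each Ensembl gene. The submitters' processing notes name build GRCm38 and, without roles, StringTie 1.3.3b, STAR 2.5.3a, DESeq2 1.22.2, R 3.5.0, Picard 2.0.1 and bcl2fastq 2.18.0.12. How reads on overlapping records or with several alignments were counted, by which tool and annotation, is not given in the sources used here. Members with near-identical copies, exonic positions or twin records are therefore uncertain. Between 51.6% and 58.8% of counts were even in each library among low counts, so both mates may have been counted. Counts lack molecular identifiers, and intervals rest on the spread between these libraries, which the labels do not say came from separate animals.

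Of 46078 identifiers 45229 matched GENCODE vM21, which gave symbols, types, positions and sequences, and 849 did not. A host was the same-strand protein-coding or long noncoding gene containing the snoRNA, with the highest mean count per exon kilobase where several did. Differences in counts were tested with edgeR 4.0.16 under R 4.3.3 (filterByExpr by group, TMM, quasi-likelihood F test, Benjamini-Hochberg over all genes, threshold 0.05), and 6 members did not pass the filter. Each standard error was taken as the size of the log2 fold change divided by the root of F. The common biological coefficient of variation was 29.4%. Ratios were log2 of snoRNA count over host count, with 0.5 added to each, tested with limma 3.58.1 (trend) over 1305 nested pairs. Both procedures were also run on simulated counts with 50 genes changed at each fold. At 2-fold edgeR recovered 19 of 50 and the ratio test 3 of 50, and at 4-fold 42 and 27. The changed genes were drawn from all genes or nested genes tested, not from members alone. On those counts edgeR called 107 of 17615 genes, against 4737 of 18097 in the 6 libraries. The ratio test called 69 of 1305 pairs, against 211 of 1305. With fewer calls, the adjusted threshold of 0.05 fell at a smaller unadjusted p. Recovery at the cut reached in the 6 libraries was therefore not tested.

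Named members were the 10 with the highest mean CPM, called members with a log2 CPM of 0 or more (none), and the 5 with the widest spread within a group among those at a log2 CPM of 2 or more. Hosts with 3 or more members, called ratio pairs and the 8 protein genes with the smallest p followed. Any member named beyond these was picked with its values in view. The members and lists were chosen with earlier results of these data known. Alternatives were other scalings, DESeq2 1.42.0, limma-voom, other filters, a replicate block, the identifier letter, thinning to one depth, and leaving out each library. Replicate numbers are shared between the groups, but same-numbered libraries did not deviate together (correlations of -0.20, 0.05 and -0.14), so they were not treated as pairs. JMML and WT replicate 3 share the stem of their identifier, a tie the labels do not explain. Some called hosts and sequences are not reported here.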

Additional observations from a re-analysis of the deposited data

How the results depend on the processing

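The number of members called higher was 0 as reported, 1 with no low-count filter (Snora73a) and 0 to 1 when single libraries were left out (Snord50b without WT replicate 1, at 8.55 on the log2 scale, since the other WT libraries are at 0). The number called lower was 1 as reported, 0 with no filter, with a minimum of 50 counts and with the replicate block, and 0 to 1 without single libraries; the member called was Gm22357 with DESeq2, Gm23262 with the identifier letter and Gm22879 without JMML replicate 2. The median of all members was -0.41 with library totals, which moved the median of all genes from -0.02 to -0.21, -0.13 with no filter and -0.31 with the letter. A minimum of 50 counts left 92 members. Protein genes called lower numbered 3 with library totals and with 50 counts (Nop56, Tgs1 and Dis3), 1 with DESeq2, and 0 to 1 without single libraries; those called higher numbered 0 to 1 (Nhp2 without WT replicate 1). Ratio pairs called lower numbered 6 with 5 added to each count, 0 with no abundance trend, 1 with 50 counts in both genes, 0 with the replicate block, 1 with the letter (Gm23262), 2 with the libraries ending in M (Gm22879 and Gm23262), 4 without pairs overlapping a host exon (Snord4a and the 3 reported) and 0 without any single library. Ratio pairs called higher numbered 1 with 5 added (Gm23442) and 2 without pairs overlapping a host exon (Gm22154 and Gm23442).

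Named members that changed sign were called neither as reported nor in the setting that changed the sign. With library totals Scarna10, Gm26448 and Snora74a were at -0.060, -0.006 and -0.064. With the letter as a covariate Snora73a, Scarna10, Gm26448, Rnu3a, Snora74a and Gm24336 were at -0.0093, -0.35, -0.052, -10.0, -0.24 and -0.27. With the libraries ending in M alone Scarna10, Gm26448, Rnu3a, Snora74a and Gm24336 were at -0.31, -0.015, -9.96, -0.21 and -0.23. Snord17 was at 0.047 with no filter. Leaving out single libraries gave ranges of -0.32 to 0.39 for Scarna10, -0.029 to 0.31 for Gm26448, -0.13 to 0.31 for Snora74a, -0.18 to 0.42 for Gm24336, -0.30 to 0.11 for Snord17, -0.32 to 0.050 for Snord22 and -0.014 to 1.11 for Snord14e, with the lowest of the first 6 without JMML replicate 1. With the replicate block Gm23297 lost its call (adjusted p = 0.126), and the cause of these changes was not tested. The letter leaves 1 JMML library with M, so the group difference in both fits by letter rests on it. The fit on the libraries ending in M takes its spread from the WT libraries alone. The covariate fit takes it from the JMML libraries ending in F as well. Precision differed with level, since the 95% interval lay within a 2-fold change either way for 36 of 158 tested members under a log2 CPM of 2 and for 23 of 28 above.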

Other observations

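Other small noncoding RNAs in the same libraries differed in how many were called. Of 55 small nuclear RNA genes tested, 12 were called higher in JMML and 1 lower (edgeR), beside 26.2% of all genes called. Those higher included Rnu1b1, Rnu1b2 and Rnu1b6, copies of the U1 RNA of the spliceosome, with Rnu1b1 and Rnu1b2 both at 1.35 on the log2 scale. U1 genes are near-identical copies, so their calls are not separate measurements. Of 16 small Cajal body RNA genes 0 were called higher and 1 lower (Gm24644), and of 80 microRNA genes 4 were called higher and 3 lower. Rmrp and Rpph1, the RNAs of RNase MRP and RNase P, were at 0.70 ± 0.26 and 0.55 ± 0.29, with adjusted p of 0.0816 and 0.192.

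JMML replicate 1 also held the highest share of several abundant RNAs made by RNA polymerase III. Rn7sk took 1.99% of its counts, against 1.09% to 1.55% in the other 5 libraries, Rn7s1 took 3.72% against 1.82% to 2.76%, and Rpph1 took 1.18% against 0.584% to 0.784%. The shares of snoRNA genes and of Scarna10 were highest in the same library.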
